A study of Saccharomyces cerevisiae with 24 samples.

Results

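The hexose transporter genes described here are HXT1, HXT2, HXT3, HXT4, HXT5, HXT7, HXT8, HXT10, HXT11 and HXT14 of the budding yeast Saccharomyces cerevisiae. They were taken by gene symbol, not by any measured value, and all 10 of 10 were measured, each by 1 probe set, among 5449 genes on the array. The array names 14 of the 17 HXT genes of the reference gene table, and the other 4 named ones are counted below with related transporters. RNA was measured in 24 cultures, 1 Affymetrix array each, from 8 strains with 3 biological replicates per strain. Beside the reference strain (wild type per the labels), the strains lacked SIP1 (sip1), SIP2 (sip2), GAL83 (gal83), a pair of these genes (sip1 sip2, sip1 gal83 and sip2 gal83), or all 3 (sip1 sip2 gal83, called the triple strain below). Each strain was grown with air in a 1 L bioreactor at 30 °C and pH 5.0 on 10 g/L glucose, fed at a dilution rate of 0.1 per h so that glucose limited growth, and cells were taken once the culture was steady. The labels do not say how many independent clones of a strain were used.

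Hexose transporters are membrane proteins that let glucose and related sugars diffuse into the cell. Members differ in their affinity for glucose, and yeast changes which of them it makes as glucose becomes scarce or plentiful, through membrane glucose sensors (SNF3, RGT2), the paralogs MTH1 and STD1 and the repressor RGT1 on one side, and through the Snf1 kinase and the repressor MIG1 on the other. Snf1 is the yeast AMP-activated protein kinase. SIP1, SIP2 and GAL83 encode its alternative β-subunits, which hold the complex together and direct its location and targets, so the triple strain keeps none of them.

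Values are log2 intensities per probe set as deposited, from 1.66 to 15.93 over the named genes, and array medians ran from 10.90 to 11.07. Readings of about 2 mark its lower end. A level is compared only with the same probe set's level in other arrays, never with that of another gene. The probe sets of 9 members are of the single-gene kind. That of HXT7 is of the kind shared between near-identical genes, and HXT6, which lies next to HXT7 on the chromosome and is nearly identical to it, has no probe set of its own here, so signal of the pair cannot be told apart. The deleted genes read as labelled in 22 of 24 arrays. GAL83 read 9.72 in replicate 2 of the strain labelled sip1 gal83, and SIP2 read 6.0 in replicate 3 of the strain labelled sip1 sip2. The results below were therefore also computed without these arrays and without sip2 gal83 replicate 1, which read SIP1 at 9.76 where the other arrays of its strain read 10.57 and 10.50. These 3 are called the doubted arrays below.

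In these strains 8 of the 10 transporter genes differed among strains (limma moderated F test, adjusted p under 0.05), in a table where 71.4% of all genes did. HXT1, HXT3 and HXT4 were highest in the triple strain, while HXT3 was lowest in the gal83 strain and HXT4 in the sip2 gal83 strain. HXT2 and HXT7 moved by small steps of log2 intensity, upward wherever they were called against the reference, and HXT5 by small steps downward. These 3 genes read above 14 in the reference, on a scale that ends at 15.93. Whether readings so near the upper end understate a change in RNA was not tested. The adjusted p of the F test was 1.12e-07 for HXT4, 2.01e-07 for HXT1, 1.03e-06 for HXT3, 0.000366 for HXT7, 0.00114 for HXT11, 0.00132 for HXT10, 0.0108 for HXT2 and 0.0148 for HXT5. HXT8 (0.891) and HXT14 (0.988) did not pass. In all comparisons that follow, a gene is called where its limma p, adjusted by Benjamini-Hochberg over all 5449 genes, is under 0.05. Each change is a difference of log2 means, given ± its standard error from 1 fit to all arrays, and levels are means ± SD of n = 3 arrays. These are bulk cultures, in which a change in every cell and a larger change in some cells cannot be told apart.

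**Figure D1:**
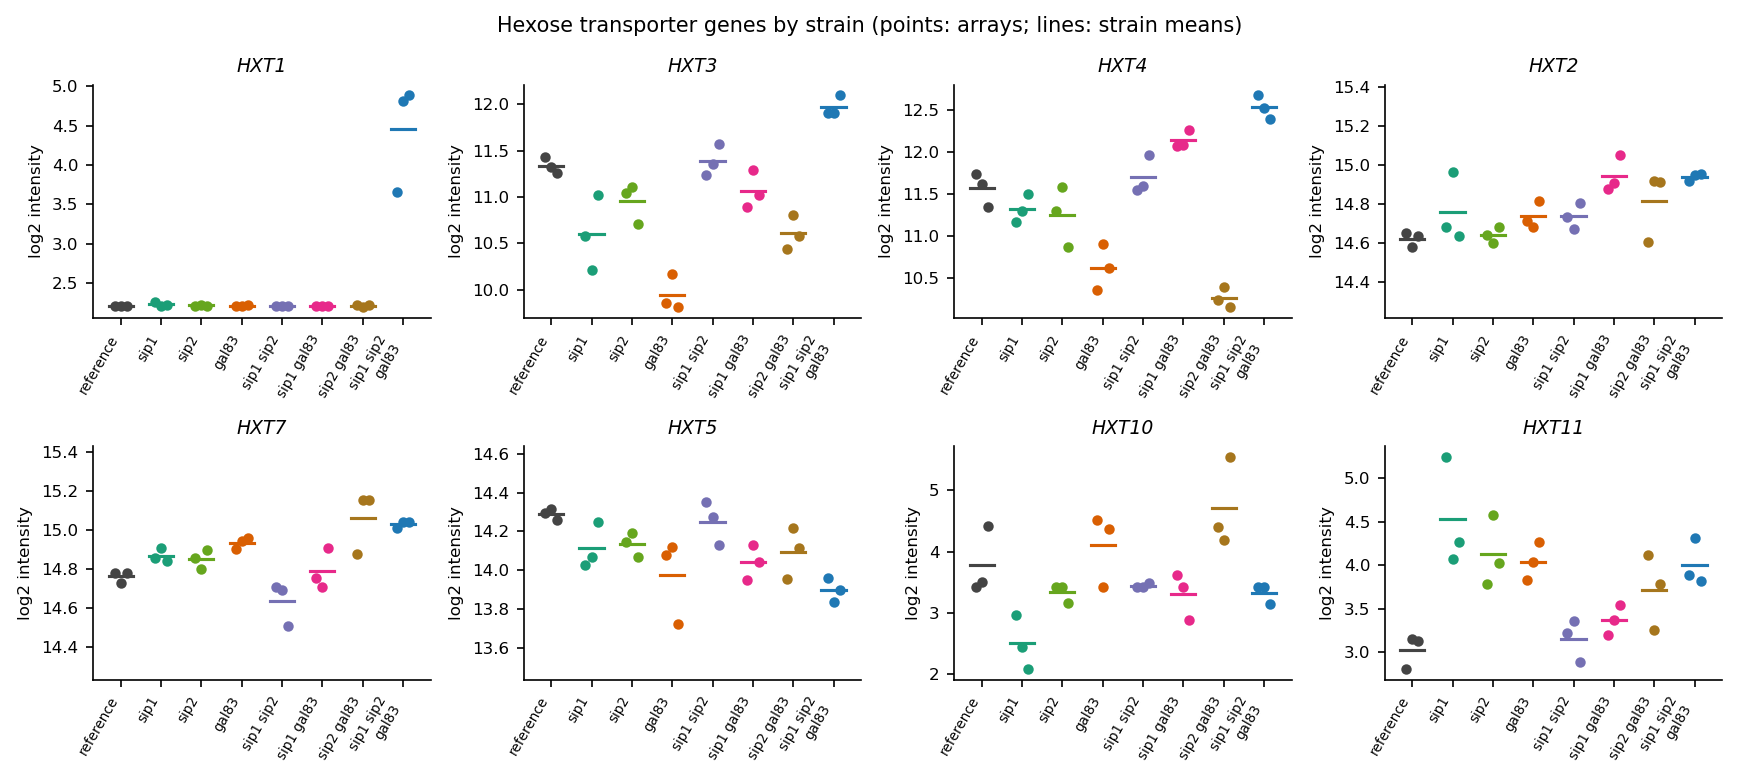
Log2 intensity (vertical axes) of the 8 transporter genes that differed among strains, in the 8 strains (horizontal axes), with 1 point per array and a line at each strain's mean of 3 arrays. HXT1 leaves the lower end of the scale only in the triple strain (3.66 to 4.89), while HXT3 and HXT4 spread over all strains; the vertical scales differ between panels.

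HXT1 (YHR094C) encodes a low-affinity transporter that yeast makes when glucose is plentiful. Its signal lay at the lower end of the scale in all strains except the triple strain. The 21 arrays of the other strains read between 2.19 and 2.26. The triple strain read 3.66, 4.81 and 4.89, above every other array. The triple strain mean of 4.45 ± 0.69 was 2.24 ± 0.19 above the reference mean of 2.21 (adjusted p = 1.24e-07). The fit shares 1 spread among strains, while the SD of the other strains ran only from 0.00047 to 0.024. The standard error and adjusted p values of HXT1 therefore understate the spread of the triple strain. Against each of the double deletion strains the change was likewise 2.24 or 2.25, with adjusted p between 1.76e-07 and 2.85e-07. The changes in the single and double deletion strains ran from -0.0048 to 0.017 with a standard error of 0.19. Leaving out 1 array at a time kept the call, with a rise of 2.02 without triple replicate 3 and 2.64 without triple replicate 1. Over the alternatives other than raising low values, the adjusted p reached 0.00555 against the reference and 0.0394 against the sip2 gal83 strain. The triple strain's own readings are low for this table, and since the other strains sat at the lower end of the scale, the size of the rise depends on where that end lies.

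HXT3 (YDR345C) encodes a low-affinity transporter that is made over a wide range of glucose levels. Its order among strains ran from the gal83 strain at the bottom to the triple strain at the top. The reference read 11.44, 11.32 and 11.26, the gal83 strain 9.86, 10.17 and 9.81, and the triple strain 11.91, 11.91 and 12.10. The gal83 arrays were the lowest 3 of all 24 and the triple arrays the highest 3, and neither overlapped the reference. The sip1 strain read 10.59, 10.21 and 11.02 and the sip2 gal83 strain 10.44, 10.81 and 10.58. The sip2 strain read 11.04, 11.10 and 10.71. These 3 strains lay wholly below the reference and overlapped each other. The sip1 gal83 strain read 10.89, 11.29 and 11.02, and overlapped the reference by replicate 2 alone, which is a doubted array. The sip1 sip2 strain read 11.24, 11.35 and 11.57 and overlapped the reference too.

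Against the reference mean of 11.34 ± 0.092, HXT3 fell by 1.40 ± 0.17 in the gal83 strain (adjusted p = 1.29e-05), to 9.94 ± 0.20. It fell by 0.74 ± 0.17 in the sip1 strain (adjusted p = 0.00257) and by 0.73 ± 0.17 in the sip2 gal83 strain (adjusted p = 0.00376). It rose by 0.63 ± 0.17 in the triple strain (adjusted p = 0.00742), to 11.97 ± 0.11. The sip2 strain (-0.39 ± 0.17, adjusted p = 0.0791), the sip1 gal83 strain (-0.27 ± 0.17, adjusted p = 0.346) and the sip1 sip2 strain (0.047 ± 0.17, adjusted p = 1) did not pass. From low to high the other means were 10.60 in sip1, 10.61 in sip2 gal83, 10.95 in sip2, 11.07 in sip1 gal83 and 11.39 in sip1 sip2, and each of these overlapped the next in the order. Without the doubted arrays the sip2 gal83 change was -0.64 (adjusted p = 0.0185), and the sip1 gal83 change of -0.39 still did not pass (adjusted p = 0.168). Subtracting each array's median left the 4 calls in place, with -1.28, -0.63, -0.65 and 0.71 for these changes in the order first given.

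HXT4 (YHR092C) encodes a transporter of higher affinity that is made when glucose is low. Unlike HXT3, its lowest strain was sip2 gal83, and the sip1 gal83 strain lay above the reference. The reference read 11.74, 11.63 and 11.35, the gal83 strain 10.36, 10.90 and 10.63, and the sip2 gal83 strain 10.24, 10.40 and 10.15. The last 2 strains overlapped by a single array pair and both lay wholly below the reference. The sip1 gal83 strain read 12.08, 12.08 and 12.27, and the triple strain 12.68, 12.53 and 12.40. These strains did not overlap each other or any other strain. The sip1 strain read 11.17, 11.30 and 11.50, the sip2 strain 11.30, 11.59 and 10.88, and the sip1 sip2 strain 11.55, 11.60 and 11.96, each overlapping the reference.

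Against the reference mean of 11.57 ± 0.20, HXT4 fell by 1.31 ± 0.17 in the sip2 gal83 strain (adjusted p = 6.12e-05) and by 0.95 ± 0.17 in the gal83 strain (adjusted p = 0.000358). It rose by 0.96 ± 0.17 in the triple strain (adjusted p = 0.000278), to 12.54 ± 0.14. The sip1 gal83 strain was 0.57 ± 0.17 higher (adjusted p = 0.0396), a call that ended when any 1 array of that strain, reference replicate 2 or 3, or triple replicate 2 was left out (adjusted p 0.0504 to 0.168). It stood at 0.60 (adjusted p = 0.0480) without the doubted arrays, where the sip2 gal83 change was -1.30 (adjusted p = 0.000381). The sip1 (-0.25), sip2 (-0.32) and sip1 sip2 (0.13) strains did not pass, each with a standard error of 0.17. Between the sip2 gal83 strain, which keeps SIP1 alone, and the sip1 gal83 strain, which keeps SIP2 alone, HXT4 differed by -1.88 ± 0.17, lower in the sip2 gal83 strain (adjusted p = 5.30e-06). That comparison was added after the data were seen.

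**Figure D2:**
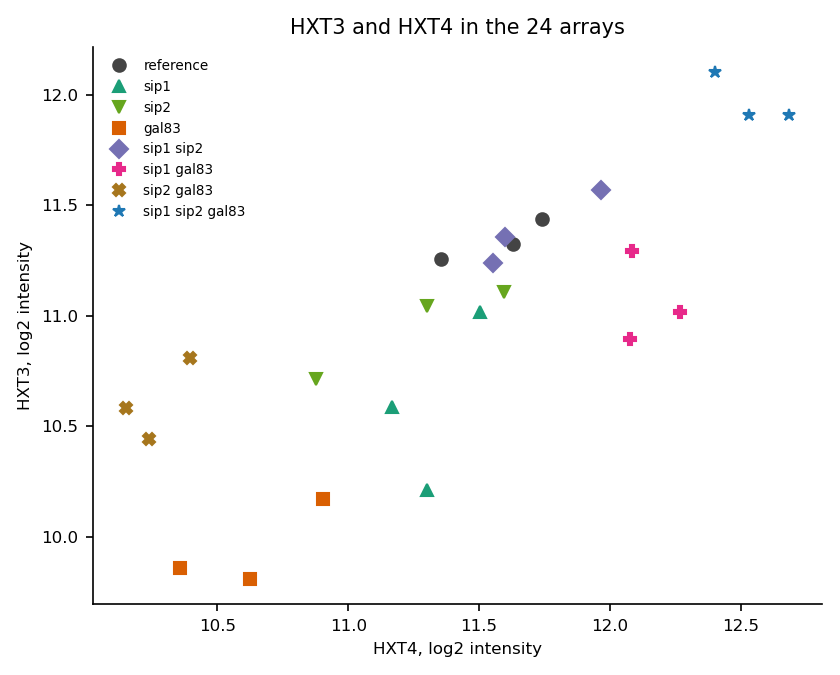
HXT4 (horizontal axis) and HXT3 (vertical axis), both as log2 intensity, in the 24 arrays, with 1 symbol per strain. Most strains lie along a common line from gal83 to the triple strain, with the sip1 gal83 arrays to its right (HXT4 12.08 to 12.27) and the sip2 gal83 arrays to its left (HXT4 10.15 to 10.40).

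HXT3 and HXT4 moved together, with r = 0.80 over the 24 arrays and 0.82 over the 8 strain means. HXT1 and HXT3 had r = 0.61 over the arrays, which rests on the triple strain alone, since HXT1 was flat elsewhere. These correlations describe arrays that share strains and cultures and carry no test. HXT4 and HXT1 are neighbours on the chromosome with 1 annotated gene between them in the reference gene table, and HXT5 adjoins HXT1. In the triple strain HXT5 fell while HXT1 and HXT4 rose. In the gal83 strain HXT5 and HXT4 both fell, and over the 24 arrays these genes had r = -0.078, also without a test. HXT3 lies 1 gene away from HXT6, on another chromosome from HXT1.

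HXT2 (YMR011W) and HXT7 (YDR342C) encode high-affinity transporters that are made when glucose is scarce. HXT2 rose in the sip1 gal83 and triple strains and HXT7 in the sip2 gal83 and triple strains, all by 0.27 to 0.32. HXT2 read 14.65, 14.58 and 14.64 in the reference, 14.88, 14.91 and 15.05 in the sip1 gal83 strain and 14.92, 14.95 and 14.96 in the triple strain. Both strains lay wholly above the reference. HXT2 was 0.32 ± 0.082 higher in each of these strains (adjusted p = 0.0180 and 0.00568). The sip1 gal83 call ended without sip1 gal83 replicate 3 (0.27, adjusted p = 0.105) or reference replicate 2 (0.30, adjusted p = 0.0693). The order of means ran from 14.62 in the reference through 14.64 in sip2, 14.74 in both sip1 sip2 and gal83, 14.76 in sip1 and 14.81 in sip2 gal83 to 14.94 in the triple strain and 14.95 in sip1 gal83. Neighbours overlapped or, for sip2 gal83 and the triple strain, touched at 14.92. The sip2 gal83 strain read 14.61, 14.92 and 14.92, so that replicate 1 sat within the reference and the other arrays above it. Its change of 0.19 ± 0.082 missed the threshold (adjusted p = 0.0759), but stood at 0.29 when the doubted arrays were left out (adjusted p = 0.0120).

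HXT7, read with HXT6, gave 14.78, 14.73 and 14.78 in the reference, 14.88, 15.15 and 15.15 in the sip2 gal83 strain and 15.01, 15.04 and 15.04 in the triple strain. Both deletion strains lay above all reference arrays. The rise was 0.30 ± 0.067 in the sip2 gal83 strain (adjusted p = 0.00295) and 0.27 ± 0.067 in the triple strain (adjusted p = 0.00449). In the gal83 strain, with 14.90, 14.94 and 14.96, it was 0.17 ± 0.067 and barely passed (adjusted p = 0.0474). That call ended under quantile normalization (adjusted p = 0.0920), with the replicate number as a block (adjusted p = 0.0555) and without any 1 of the reference arrays (adjusted p 0.0758 to 0.132) or of the gal83 arrays (0.0666 to 0.117). In all, the gal83 call held in only 13 of 33 alternatives. The sip1 sip2 strain was the lowest, with 14.71, 14.69 and 14.51, wholly below the reference, but its change of -0.13 ± 0.067 did not pass (adjusted p = 0.596). Between these ends the means were 14.79 in sip1 gal83, 14.85 in sip2, 14.87 in sip1 and 14.94 in gal83. Neighbours in that order overlapped, except that sip1 sip2 lay below the reference and gal83 below the triple strain.

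HXT5 (YHR096C) encodes a transporter of intermediate affinity that is made in slow-growing and starved cells. It was highest in the reference and lowest in the triple strain. The reference read 14.30, 14.31 and 14.26, and the triple strain 13.96, 13.84 and 13.90. The strains did not overlap, and HXT5 fell by 0.39 ± 0.092 (adjusted p = 0.00308). The gal83 strain read 14.08, 14.12 and 13.73, wholly below the reference, with replicate 3 the lowest of all 24 arrays. Its fall of 0.32 ± 0.092 passed (adjusted p = 0.0117) but became -0.19 without gal83 replicate 3 (adjusted p = 0.0782) and -0.20 after median centring (adjusted p = 0.109). From low to high the strain means were 13.90 in the triple strain, 13.98 in gal83, 14.04 in sip1 gal83, 14.10 in sip2 gal83, 14.11 in sip1, 14.14 in sip2, 14.25 in sip1 sip2 and 14.29 in the reference. Each strain overlapped the next in this order.

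HXT10 (YFL011W) and HXT11 (YOL156W) encode hexose transporters whose natural role is little known, and HXT11 is a close copy of HXT9. Both read low on the scale and varied widely between replicates. HXT11 was higher in all 3 single deletion strains and in the triple strain than in the reference. The reference read 2.81, 3.15 and 3.12, the sip1 strain 5.25, 4.07 and 4.27 and the sip2 strain 3.78, 4.58 and 4.03. The gal83 strain read 3.83, 4.03 and 4.26, and the triple strain 3.89, 4.31 and 3.82. None of these strains overlapped the reference.

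Against the reference mean of 3.03 ± 0.19, HXT11 rose by 1.5 ± 0.28 in the sip1 strain (adjusted p = 0.000469), by 1.10 ± 0.28 in the sip2 strain (adjusted p = 0.00422) and by 1.02 ± 0.28 in the gal83 strain (adjusted p = 0.00759). It rose by 0.98 ± 0.28 in the triple strain (adjusted p = 0.0103), a call that ended without triple replicate 2 (0.82, adjusted p = 0.0515). The double deletion strains sip1 sip2 (0.13) and sip1 gal83 (0.34) did not pass. The first overlapped the reference, and the second lay just above it, with 3.20 to 3.54. The sip2 gal83 strain, with 4.12, 3.26 and 3.78, lay above the reference but did not pass (0.69 ± 0.28, adjusted p = 0.0592). From low to high the remaining means were 3.16 in the sip1 sip2 strain, 3.37 in the sip1 gal83 strain, 3.72 in the sip2 gal83 strain, 4.0 in the triple strain, 4.04 in gal83, 4.13 in sip2 and 4.53 in sip1, each overlapping the next. Quantile normalization turned the sip2 gal83 change into a call (0.98, adjusted p = 0.0152) and ended the triple strain's call (0.64, adjusted p = 0.0894).

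HXT10 read 3.42 or 3.43 in 9 of the 24 arrays, so that many of its readings differed in no digit shown. The reference read 3.42, 3.5 and 4.42, the sip1 strain 2.97, 2.45 and 2.09, and the sip2 gal83 strain 4.40, 4.19 and 5.55. The sip1 strain lay wholly below the reference, and the sip2 gal83 strain overlapped reference replicate 3. HXT10 fell by 1.28 ± 0.35 in the sip1 strain (adjusted p = 0.00794), a call that ended without reference replicate 3 (-0.96, adjusted p = 0.0521) and under quantile normalization (-0.84, adjusted p = 0.0595). It was 0.93 ± 0.35 higher in the sip2 gal83 strain (adjusted p = 0.0450), and this call ended without sip2 gal83 replicate 3 (0.52, adjusted p = 0.224), without reference replicate 1 or 2 (adjusted p = 0.151 and 0.140) and with the doubted arrays left out (adjusted p = 0.0651). It held in 16 of 32 alternatives. Among strain means HXT10 was lowest in sip1 at 2.50 ± 0.44 and highest in sip2 gal83 at 4.71 ± 0.73, and of the neighbours in that order sip2 and sip1 sip2 alone did not overlap, though they nearly touched at 3.42.

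HXT8 (YJL214W) and HXT14 (YNL318C), of little known role, stayed at the lower end of the scale, HXT8 between 1.99 and 2.07 and HXT14 between 2.21 and 2.24. Neither was called in any of the 18 comparisons. No statement can be made about their RNA beyond its reading at the low end in all 8 strains.

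Set against the reference, the transporter genes called were fewest in the sip1 sip2 strain and most in the triple strain. Calls over all genes were fewest in the sip1 sip2 strain too (0.257%). All 7 of these comparisons use the same 3 reference arrays, so their changes are not independent of each other. In the sip1 strain 3 of 10 were called, HXT11 higher and HXT3 and HXT10 lower. Among all genes 39.4% were called, 10.3% higher and 29.1% lower. In the sip2 strain 1 of 10 was called, HXT11, against 40.7% of all genes, 8.55% higher and 32.1% lower. In the gal83 strain 5 of 10 were called, with HXT7 and HXT11 higher and HXT3, HXT4 and HXT5 lower, against 41.2% of all genes, 10.6% higher and 30.6% lower.

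In the sip1 sip2 strain none of the 10 transporter genes was called by limma, and none reached an unadjusted p of 0.05, with changes from -0.33 to 0.13. Among all genes 0.257% were called there, 0.11% higher and 0.147% lower, and 506 genes had an unadjusted p under 0.05. In the sip1 gal83 strain 2 of 10 were called, HXT2 and HXT4, both higher, against 10.9% of all genes, 3.6% higher and 7.3% lower. In the sip2 gal83 strain 4 of 10 were called, HXT7 and HXT10 higher and HXT3 and HXT4 lower, against 37.3% of all genes, 10.8% higher and 26.4% lower. In the triple strain 7 of 10 were called, HXT5 lower and HXT1, HXT2, HXT3, HXT4, HXT7 and HXT11 higher, against 38.4% of all genes, 14.9% higher and 23.5% lower.

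The median change of the 10 transporter genes was 0.29 in the triple strain, where that of all genes was -0.039. In the other 6 strains the transporters' median lay between -0.011 and 0.0030, while that of all genes lay between -0.12 and -0.069 in the single deletion and sip2 gal83 strains. In each of these 6 strains the transporters' median was set by HXT1, HXT8 or HXT14, which read at the lower end of the scale there. It therefore does not show how the other transporters moved, and cannot be weighed against the median of all genes. After each array's median was subtracted, the calls over all genes turned from mostly lower to mostly higher. They went from 562 higher and 1586 lower to 1272 and 1024 in the sip1 strain, from 466 and 1751 to 1247 and 1004 in the sip2 strain, and from 575 and 1668 to 1263 and 997 in the gal83 strain. In the sip2 gal83 strain they went from 590 and 1441 to 1185 and 980, and in the triple strain from 811 and 1282 to 1191 and 923. Quantile normalization gave 320 higher and 322 lower in the sip1 gal83 strain in place of 196 and 398. After median centring the transporter calls stood at 4 higher and 2 lower in the sip1 strain, 4 and 0 in the sip2 strain, 5 and 2 in the gal83 strain, 5 and 2 in the sip2 gal83 strain and 6 and 1 in the triple strain. The higher calls included HXT14 in the sip1 (0.11), sip2 (0.15), gal83 (0.12) and sip2 gal83 (0.081) strains. They also included HXT8 in the sip2 (0.11) and gal83 (0.090) strains. Both genes read flat near the lower end of the scale before centring, so these rises come from the subtraction itself.

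**Figure D3:**
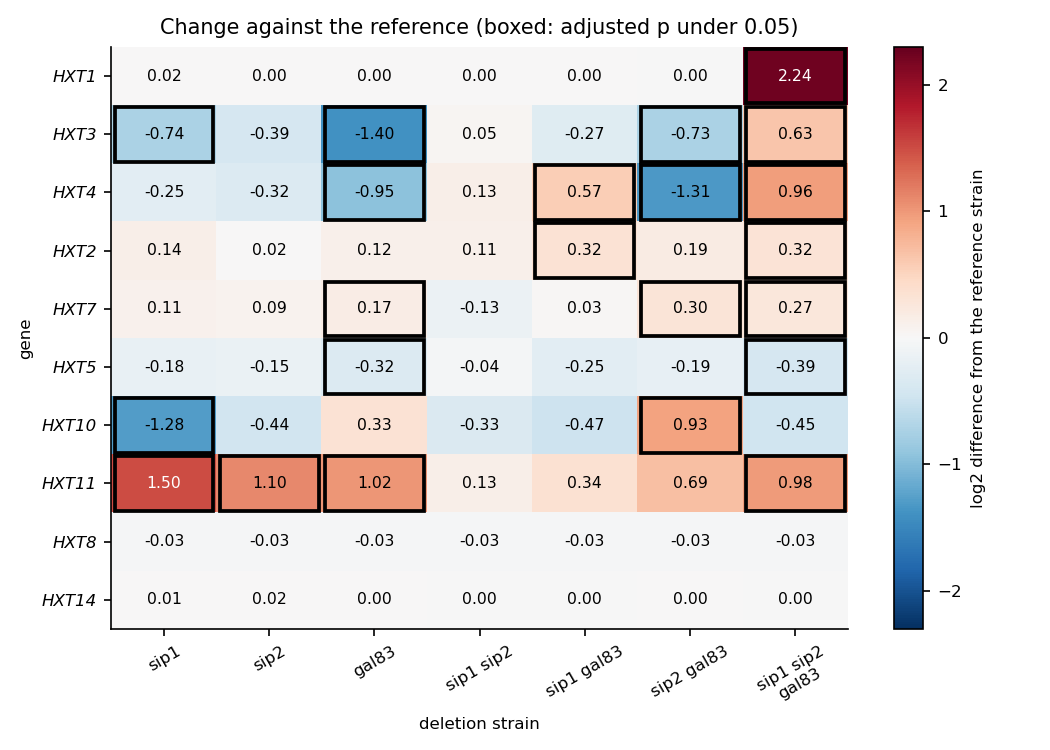
Log2 change against the reference (colour scale) of the 10 transporter genes (one row each) in the 7 deletion strains (columns), with called changes marked. HXT3 and HXT4 run from -1.40 and -0.95 in the gal83 strain to 0.63 and 0.96 in the triple strain, and the sip1 sip2 column holds no called change.

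Each double deletion strain keeps a single β-subunit, so the triple strain against it shows the loss of the last one. Losing the last subunit raised HXT1 and HXT3 in all 3 such comparisons, which share the triple arrays. Against the sip1 sip2 strain, which keeps GAL83, 6 of 10 transporters were called. HXT1, HXT3 (0.58 ± 0.17, adjusted p = 0.0145), HXT4 (0.83 ± 0.17, adjusted p = 0.00116), HXT7 (0.39 ± 0.067, adjusted p = 0.000239) and HXT11 (0.85 ± 0.28, adjusted p = 0.0269) were higher. HXT5 was lower (-0.35 ± 0.092, adjusted p = 0.00772). Among all genes 32.1% were called, 14.1% higher and 18% lower, with 766 and 982 genes, which median centring turned into 960 and 802. The HXT3 call ended without sip1 sip2 replicate 1 (adjusted p = 0.0621) or triple replicate 3 (adjusted p = 0.0602), and the HXT11 call without sip1 sip2 replicate 1 or 3 (adjusted p = 0.0533 and 0.0970), triple replicate 2 (0.111) or the doubted arrays (0.0828). Over the alternatives tried the HXT11 change ranged from 0.28 to 0.96, with adjusted p up to 0.496, and was called in 27 of 32.

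Against the sip1 gal83 strain, which keeps SIP2, 3 of 10 were called, all higher, where 13.2% of all genes were, 6.02% higher and 7.14% lower. These were HXT1, HXT3 (0.90 ± 0.17, adjusted p = 0.00179) and HXT7 (0.24 ± 0.067, adjusted p = 0.0239), while HXT4, already high in that strain, did not pass (0.40 ± 0.17, adjusted p = 0.135). The HXT7 call ended without sip1 gal83 replicate 1 or 2 or any 1 of the triple arrays. The whole table held 328 higher and 389 lower calls, which median centring turned into 489 and 253. Against the sip2 gal83 strain, which keeps SIP1, 4 of 10 were called, where 14.5% of all genes were, 9.54% higher and 4.94% lower. HXT4 rose by 2.28 ± 0.17 (adjusted p = 5.16e-08) and HXT3 by 1.36 ± 0.17 (adjusted p = 3.13e-05), with HXT1, and HXT10 fell by 1.39 ± 0.35 (adjusted p = 0.0122). The HXT10 call ended without sip2 gal83 replicate 3 (-0.97, adjusted p = 0.0571). Without the doubted arrays HXT4 rose by 2.26 and HXT3 by 1.28. Quantile normalization gave 463 higher and 466 lower over all genes in place of 520 and 269.

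The double deletion strains that keep SIP1 alone and SIP2 alone differed in 3 of 10 transporters, in a comparison added after the data were seen. HXT4 was lower in the sip2 gal83 strain, as given above, and HXT7 (0.27 ± 0.067, adjusted p = 0.0169) and HXT10 (1.41 ± 0.35, adjusted p = 0.0180) were higher. HXT3 was 0.46 ± 0.17 lower and did not pass (adjusted p = 0.0801). Among all genes 12.5% were called, 2.75% higher and 9.78% lower, with 150 and 533 genes, against 310 and 273 after median centring. The HXT7 call ended without sip1 gal83 replicate 1 or 2, and the HXT10 call without sip1 gal83 replicate 3 (adjusted p = 0.0540) or the doubted arrays (adjusted p = 0.0682). The HXT4 difference was -1.90 without the doubted arrays (adjusted p = 0.000179).

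The gal83 strain was also set against the mean of the sip1 and sip2 strains. HXT3 was 0.83 ± 0.15 lower (adjusted p = 0.00203), HXT4 0.66 ± 0.15 lower (adjusted p = 0.0142) and HXT10 1.18 ± 0.30 higher (adjusted p = 0.0350). These 3 of 10 stood in a comparison where 3.74% of all genes were called, 2.24% higher and 1.5% lower. Quantile normalization gave 93 higher and 94 lower over all genes in place of 122 and 82. Fitted on the 3 compared strains alone, none of these passed (adjusted p = 0.0801 for HXT3, 0.141 for HXT4 and 0.0995 for HXT10). Without gal83 replicate 1 the HXT4 difference was -0.53 (adjusted p = 0.147) and the HXT10 difference 0.98 (adjusted p = 0.252). The HXT10 call also ended without gal83 replicate 3, sip1 replicate 2 or 3, or any 1 of the sip2 arrays (adjusted p 0.0512 to 0.113).

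The 8 strains hold every combination of the 3 deletions, so each deletion can be averaged over the 4 backgrounds it was made in. Deleting SIP1 raised HXT4 by 1.00 ± 0.085 on average (adjusted p = 6.85e-07), HXT3 by 0.55 (adjusted p = 0.00025), HXT1 by 0.56 (adjusted p = 0.000464) and HXT2 by 0.14 (adjusted p = 0.0172), the last not called after median centring (0.12, adjusted p = 0.0536). It lowered HXT10 by an average of -0.84 (adjusted p = 0.00224). These 5 of 10 compare with 25% of all genes, 17.6% higher and 7.43% lower, or 958 and 405 genes, against 673 and 583 after median centring. Deleting SIP2 raised HXT1 by 0.55 (adjusted p = 0.00117) and HXT3 by 0.49 (adjusted p = 0.00119), 2 of 10 where 13.4% of all genes were called, 5.98% higher and 7.43% lower. For SIP2 the 326 higher and 405 lower genes became 438 and 270 after centring. Deleting GAL83 gave 5 of 10, with HXT1 (0.55), HXT2 (0.17), HXT7 (0.17) and HXT10 (0.60) higher and HXT5 (-0.19) lower, where 39.3% of all genes were called, 19.6% higher and 19.7% lower. The average for HXT1 comes from the triple strain alone.

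Averaged over backgrounds, deleting GAL83 gave HXT3 -0.17 (adjusted p = 0.119) and HXT4 -0.072 (adjusted p = 0.542), with changes of opposite sign in different backgrounds. HXT4 fell by 0.95 on deleting GAL83 from the reference and changed by -0.995 when GAL83 was deleted from the sip2 strain (adjusted p = 0.000242). It rose by 0.82 on deleting GAL83 from the sip1 strain (adjusted p = 0.00120) and by 0.83 from the sip1 sip2 strain. The sign of the HXT4 change on deleting GAL83 thus went with whether SIP1 was present. HXT3 fell by 1.40 on deleting GAL83 from the reference, rose by 0.46 from the sip1 strain (adjusted p = 0.0409) and by 0.58 from the sip1 sip2 strain, and changed by -0.34 from the sip2 strain (adjusted p = 0.124). The rise from the sip1 strain was not called after median centring (0.38, adjusted p = 0.0871) or without the doubted arrays (0.35, adjusted p = 0.145). Leaving out sip1 replicate 1 or 2 (adjusted p = 0.0921 and 0.233) or sip1 gal83 replicate 2 or 3 (adjusted p = 0.168 and 0.0664) ended the call too.

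Deleting SIP1 changed HXT4 by -0.25 in the reference (adjusted p = 0.257), 0.45 in the sip2 strain (adjusted p = 0.0481), 1.51 in the gal83 strain (adjusted p = 7.29e-06) and 2.28 in the sip2 gal83 strain. The call in the sip2 strain barely passed. It ended after median centring (0.34, adjusted p = 0.130), under quantile normalization (0.34, adjusted p = 0.151) and without the doubted arrays (0.32, adjusted p = 0.210). Fitting the sip2 and sip1 sip2 strains alone (adjusted p = 0.162), a replicate block and leaving out most single arrays ended it too. HXT3 changed by -0.74, 0.43 (adjusted p = 0.0554), 1.12 (adjusted p = 9.65e-05) and 1.36 on deleting SIP1 from the same backgrounds. HXT3 thus fell when SIP1 was deleted from the reference and rose when it was deleted from a strain without GAL83. Deleting SIP2 changed HXT3 by -0.39, 0.78 in the sip1 strain (adjusted p = 0.00209), 0.67 in the gal83 strain (adjusted p = 0.00728) and 0.90 in the sip1 gal83 strain. Deleting SIP2 changed HXT4 by -0.32, 0.38, -0.37 and 0.40, none of them called.

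The 6 comparisons of a double with a single deletion strain were added after the data were seen. Of 10 transporters, 3 were called for SIP1 deleted from the sip2 strain (36% of all genes) and 2 for SIP1 from the gal83 strain (35.9%). For SIP2, 4 were called from the sip1 strain (33.4%) and 1 from the gal83 strain (30%). For GAL83, 3 were called from the sip1 strain (37%) and 3 from the sip2 strain (37.2%). Besides HXT3 and HXT4 these included HXT11, which fell by 0.97 on deleting SIP1 from the sip2 strain (adjusted p = 0.0114), by 1.37 on deleting SIP2 from the sip1 strain (adjusted p = 0.00120) and by 1.16 on deleting GAL83 from the sip1 strain (adjusted p = 0.00348). The first of these ended without sip2 replicate 2 (adjusted p = 0.0658) or sip1 sip2 replicate 3 (adjusted p = 0.0541). Over all genes the calls leaned higher, from 970 higher and 667 lower for sip2 gal83 against gal83 to 1486 and 473 for sip1 sip2 against sip2, and median centring turned these into 748 and 819 and into 924 and 1161.

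**Figure D4:**
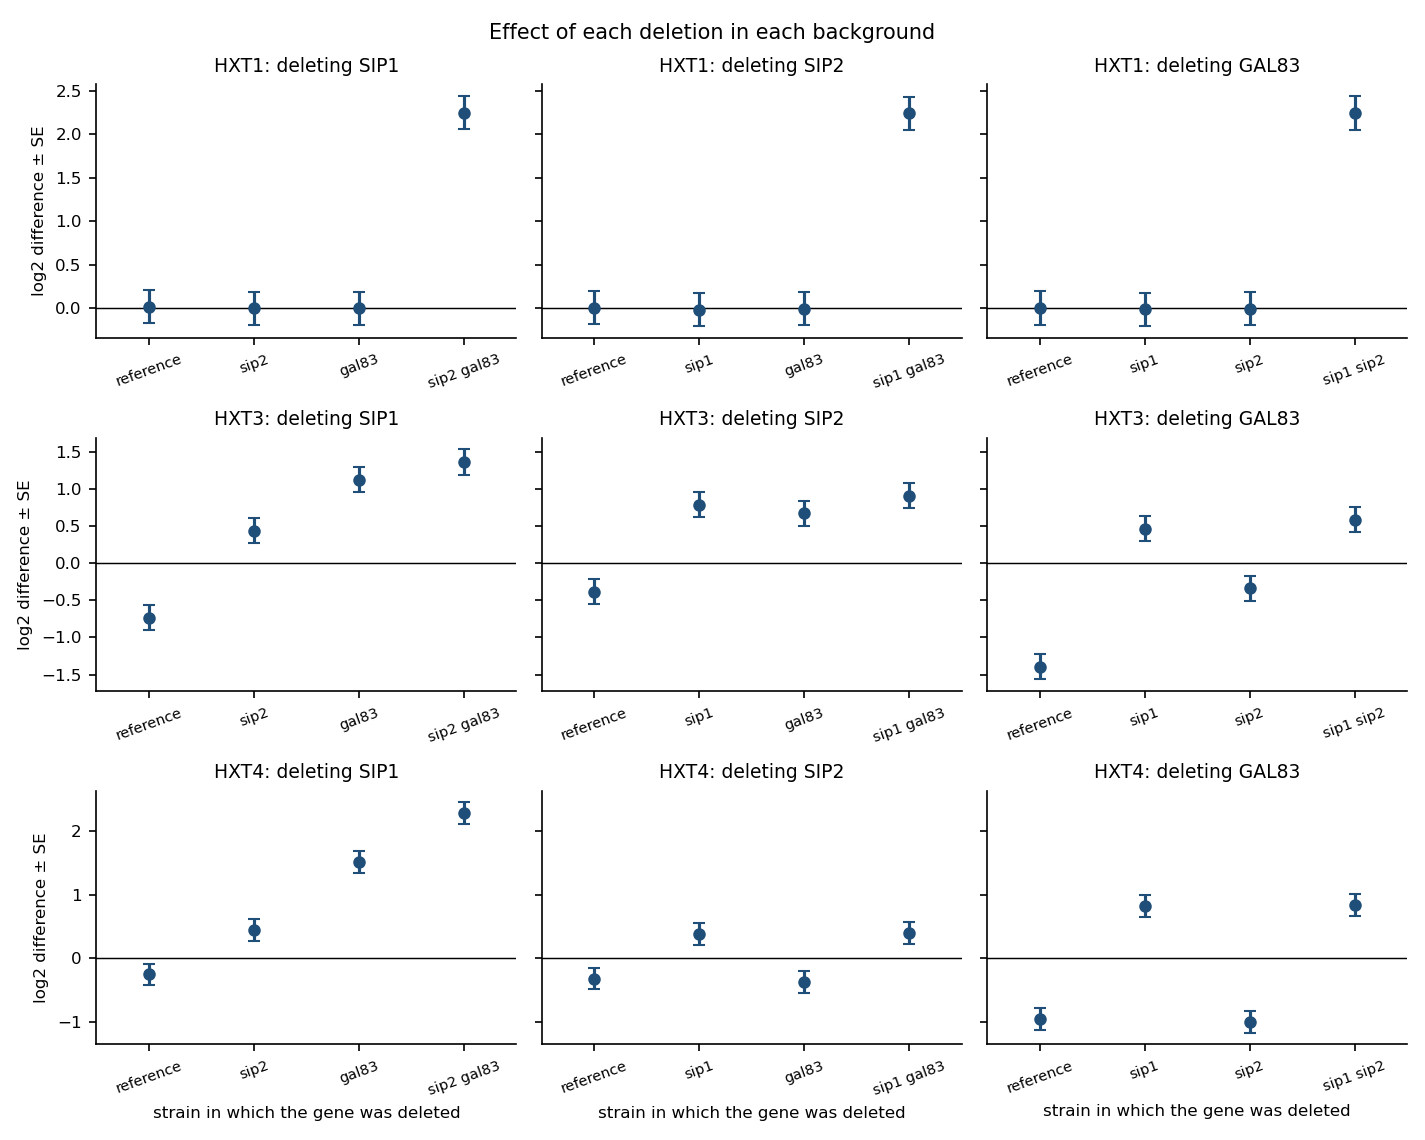
Log2 change (vertical axes, ± SE) of HXT1, HXT3 and HXT4 on deleting SIP1, SIP2 or GAL83 (panels) in each of the 4 strains that still carry that gene (horizontal axes). HXT1 changes only where the last subunit is lost, HXT3 and HXT4 fall on deleting GAL83 from the reference (-1.40 and -0.95), and HXT4 rises on deleting it from the sip1 strain (0.82).

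Whether a deletion acted differently on the reference and on the strain with a single subunit left was tested by interaction terms, added after the data were seen. For SIP1 the term was called for 4 of 10 transporters, 3 higher and 1 lower, where 37.5% of all genes were called, 27% higher and 10.5% lower. For SIP2 it was called for 3 of 10, all higher, where 25.3% were, 18.7% higher and 6.53% lower. For GAL83 it was called for 3 of 10, all higher, where 28.7% were, 19.3% higher and 9.43% lower. HXT1, HXT3 and HXT4 made up the higher calls each time, and HXT11 was the lower one. Without the doubted arrays the SIP2 term of HXT4 (0.68, adjusted p = 0.0581) and the SIP1 term of HXT11 (-1.02, adjusted p = 0.0655) no longer passed. HXT7 was then called in the SIP1 term (-0.23, adjusted p = 0.00434) and in the GAL83 term (0.16, adjusted p = 0.0301). HXT4 had 2.53 ± 0.24 for SIP1 (adjusted p = 1.54e-06) and 1.78 ± 0.24 for GAL83 (adjusted p = 5.70e-05), while its SIP2 term of 0.71 ± 0.24 (adjusted p = 0.0369) ranged from 0.52 to 0.88 over the alternatives tried and was called in 22 of 33. The splits of all genes, 1470 higher and 574 lower for SIP1, 1021 and 356 for SIP2 and 1052 and 514 for GAL83, became 989 and 1038, 708 and 570, and 706 and 705 after median centring. The median of all genes in the SIP1 term was 0.12.

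For each transporter that differed among strains, the 3 genes with the most similar pattern were taken by Pearson correlation over the 24 arrays, among 3576 genes that varied. HXT1 was closest to PCH2, a meiotic checkpoint gene (r = 0.98), to MND1, a gene of meiotic recombination (0.96), and to EFM6, a methyltransferase of a translation elongation factor (0.95). Like HXT1, these 3 read high in the triple strain alone, PCH2 at 5.69 ± 0.67 against strain means of 2.12 to 2.14 elsewhere. HXT3 was closest to SNZ3 (0.90, with a probe set shared between near-identical genes), SCO1 (0.85) and CYC3 (0.84), and HXT4 to SNZ3 (0.85), ISA1 (0.82) and PRO3 (0.81). HXT2 was closest to MVD1 (0.94), SRL1 (0.88) and MCD4 (0.88), HXT5 to TRR2 (0.85), SNT1 (0.82) and HSP42 (0.81), and HXT7 to HYP2 (0.90), CCW12 (0.87) and APL1 (0.83). HXT11 was closest to SRB7 (0.87), STE18 (0.87) and RSM18 (0.82), and HXT10 to IMA1 (0.83), ARC19 (0.71) and MST28 (0.70, shared probe set). These genes were picked as the highest among all candidates, so the coefficients only describe the arrays and carry no test.

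Of 23 other sugar and related transporters, 16 were measured. In the sip1 strain 1 was higher and 6 lower, in a table with 10.3% higher and 29.1% lower. In the sip2 strain there were 0 and 5 (8.55% and 32.1% of all genes), in the gal83 strain 1 and 5 (10.6% and 30.6%) and in the sip1 sip2 strain 0 and 0 (0.11% and 0.147%). The counts were 0 and 3 in the sip1 gal83 strain (3.6% and 7.3%), 1 and 3 in the sip2 gal83 strain (10.8% and 26.4%) and 3 and 5 in the triple strain (14.9% and 23.5%). After median centring the single deletion and sip2 gal83 strains each had 6 higher and 3 lower. MPH2, a maltose permease gene, fell in all strains but sip1 sip2 (changes of -2.22 to -1.15). MPH3, also on the list, had no probe set named for it, and whether the MPH2 signal is of MPH2 alone was not tested. MAL11, the general maltose and trehalose permease gene, rose by 0.81 in the gal83 strain and fell by 1.10 in the triple strain. STL1, the glycerol proton symporter gene, rose by 0.95 in the sip1 strain and by 1.03 in the triple strain. HXT9 fell by 0.75 in the sip2 gal83 strain by its single-gene probe set. Its other probe set, of the shared kind, was not used. That one read 1.96 to 1.98 in all arrays, at the lower end of the scale, so it could not show a fall. GAL2, HXT13, HXT15 and HXT17 read near 2 throughout.

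A list of 24 genes of glucose sensing and HXT control, all measured, holds SIP1, SIP2 and GAL83 themselves, so the counts here are over the other 21. There were 2 higher and 3 lower in the sip1 strain, 1 and 8 in the sip2 strain, 5 and 3 in the gal83 strain and 0 and 0 in the sip1 sip2 strain. In the sip1 gal83 strain there were 1 and 2, in the sip2 gal83 strain 1 and 7, and in the triple strain 1 and 4. These can be read against the shares of all genes given for the transporters above, and median centring gave 4 and 3 in the sip2 strain, 7 and 3 in gal83, 2 and 1 in sip1 gal83 and 2 and 2 in the triple strain, with the other counts as before. STD1, which encodes a regulator of RGT1, fell in 4 strains, with changes of -1.07 in sip1, -0.76 in sip2, -1.54 in gal83 and -0.82 in sip2 gal83. In these strains 29.1%, 32.1%, 30.6% and 26.4% of all genes were called lower too. Its strain means elsewhere were 8.73 in the reference, 8.66 in sip1 sip2, 8.72 in sip1 gal83 and 8.60 in the triple strain. Its paralog MTH1 rose by 0.47 in gal83 and by 0.36 in sip1 gal83. RGT1, which encodes the repressor of HXT genes, fell by 0.30 in the sip2 strain. MIG3, a relative of the glucose repressor MIG1, fell in all strains but sip1 sip2 (changes of -2.16 to -2.08), to near the lower end of the scale. CYC8, part of a general repressor complex, fell in the 3 single deletion strains, the sip2 gal83 strain and the triple strain (changes of -0.79 to -0.57).

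Of 13 genes for the sorting and turnover of membrane transporters, all measured, 1 was higher and 6 lower in sip1, 1 and 6 in sip2, 2 and 6 in gal83, 0 and 7 in sip2 gal83 and 1 and 5 in the triple strain, with none in the other strains. All genes leaned lower in these strains too, with 29.1% lower in sip1, 32.1% in sip2, 30.6% in gal83, 26.4% in sip2 gal83 and, for the triple strain, 23.5%. After median centring the lower counts were 5, 6, 6, 4 and 3. ROG3, an arrestin gene for transporter uptake, changed by -1.83 in sip1, -1.88 in sip2 and -1.39 in gal83 and rose by 0.97 in the triple strain. Its paralog ROD1 fell in the same single deletion strains, the sip2 gal83 strain and the triple strain (changes of -0.65 to -0.30). Of 7 genes of sugar phosphorylation and the first steps of glycolysis, all measured, 4 were higher and 1 lower in the triple strain. Of all genes 14.9% were higher and 23.5% lower there. In the sip2 gal83 strain 2 were higher and 3 lower (10.8% and 26.4% of all genes). Elsewhere the calls were 1 higher in sip1 (10.3% of all genes), 2 higher in gal83 (10.6%) and 1 higher in sip1 gal83 (3.6%). After median centring there were 3 higher in sip1, 4 in sip2 and 4 in gal83, with none lower, and the sip2 gal83 strain had 3 and 2 and the triple strain 4 and 0. Of all 5449 genes, centring left 1272 higher in sip1, 1247 in sip2 and 1263 in gal83. It left 1185 higher and 980 lower in sip2 gal83, and 1191 and 923 in the triple strain. HXK2, which encodes the main hexokinase, rose by 0.44 in the triple strain, 0.37 in the sip1 gal83 strain and 0.30 in the sip2 gal83 strain, and EMI2, a glucokinase-like gene, rose by 0.54 in gal83 and by 0.31 in the triple strain.

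**Figure D5:**
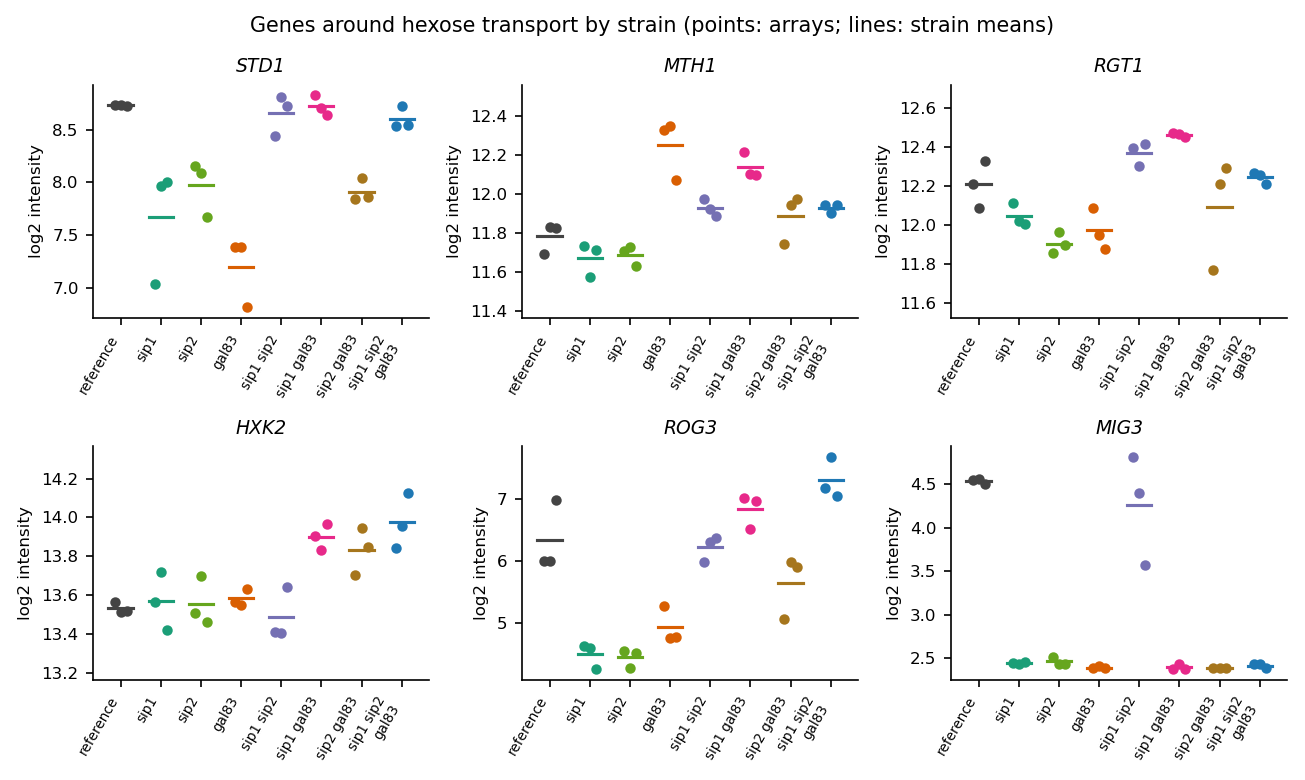
Log2 intensity (vertical axes) of STD1, MTH1, RGT1, HXK2, ROG3 and MIG3 (panels) in the 8 strains (horizontal axes), with 1 point per array and a line at the mean of 3 arrays. STD1 is lowest in the gal83 strain and near the reference level in the sip1 sip2, sip1 gal83 and triple strains (8.60 to 8.72), while MIG3 keeps its reference level in the sip1 sip2 strain alone among the deletion strains.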

How the data were processed

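RNA of 24 cultures was measured on Affymetrix arrays, 1 per culture. The deposited values are log2 intensities per probe set, summarised with RMA in affy, per the submitters' processing notes, without versions. The set of arrays normalised together, the genome build and the annotation are not given in the sources used here. Of 5716 probe sets, 5498 named 1 gene and 218 none. For a gene with several, the probe set of highest mean was used, leaving 5449 genes. Low values were not filtered.

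Strains were taken from sample titles. All arrays entered 1 fit of strain means in limma 3.58.1 (R 4.3.3) with contrasts and eBayes, with 16 residual degrees of freedom. P values are two-sided and adjusted by Benjamini-Hochberg within each of 18 comparisons, of which the last 4 (the strains keeping SIP1 alone and SIP2 alone, and 3 interactions) were added after the data were seen, as were 6 further comparisons of double with single deletion strains. The members, the gene lists and the other comparisons were chosen with earlier results of these data known. Named genes were the 10 transporters, called members of 4 gene lists of related function, and the 3 genes most correlated with each transporter that differed among strains.

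Same-numbered replicates did not deviate together: of 84 correlations 30 exceeded 0.1, with a median of 0.0361, so the numbers were not taken to pair cultures. The highest correlation between arrays was 0.9987, so none was deposited more than once. The number of arrays limits the precision. The method was tested on simulated data for 5449 genes. For the triple strain against the reference it recovered 76% of true log2 changes of 0.5, 94% of 1 and 100% of 2, with 8 false calls among 181. The simulation changed 100 genes by 0.5, 50 by 1 and 50 by 2, with independent noise and no shift between arrays. In these data 38.4% of all genes were called there, and array medians differed, so these rates need not hold for them. Alternatives were median centring, quantile normalization, leaving out or raising low values, all probe sets, trend and robust variance, array weights, a replicate block, the compared strains alone, the doubted arrays left out, and each array left out in turn.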

Additional observations from a re-analysis of the deposited data

Results flagged for a closer look

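In 10 cases the change of a transporter gene on deleting a subunit gene differed, by an interaction test, between the reference and the strain that kept that subunit alone. The tests were limma contrasts over all 24 arrays, added after the data were seen. For SIP1 the difference was 2.23 ± 0.27 for HXT1 (adjusted p = 1.37e-05), 2.10 ± 0.24 for HXT3 (adjusted p = 8.70e-06), 2.53 ± 0.24 for HXT4 (adjusted p = 1.54e-06) and -1.22 ± 0.39 for HXT11 (adjusted p = 0.0218). For SIP2 it was 2.24 ± 0.27 for HXT1 (adjusted p = 1.93e-05), 1.29 ± 0.24 for HXT3 (adjusted p = 0.000965) and 0.71 ± 0.24 for HXT4 (adjusted p = 0.0369). For GAL83 it was 2.24 ± 0.27 for HXT1 (adjusted p = 1.84e-05), 1.98 ± 0.24 for HXT3 (adjusted p = 1.90e-05) and 1.78 ± 0.24 for HXT4 (adjusted p = 5.70e-05). The 3 terms share the reference and triple arrays. The SIP2 difference of HXT4 no longer passed after median centring (0.63, adjusted p = 0.0723) or without the doubted arrays (0.68, adjusted p = 0.0581). The HXT11 difference no longer passed without the doubted arrays (-1.02, adjusted p = 0.0655), nor without reference replicate 1, sip1 replicate 1, sip2 gal83 replicate 1 or triple replicate 3 (adjusted p 0.0504 to 0.0593). The HXT1 differences rest on the triple strain, since HXT1 read at the lower end of the scale in all the others. Their standard errors use the spread shared among strains, which understates that of the triple strain.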

How the results depend on the processing

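Among single-gene values under alternatives other than leaving out 1 array, 1571 kept their direction and side of the threshold, 52 lost a call, 54 gained one and 3 reversed. The reversed ones were HXT8 in the sip2 and gal83 strains after median centring (0.11, adjusted p = 0.0137, and 0.090, adjusted p = 0.0424) and HXT14 in the triple against the sip1 sip2 strain after quantile normalization (-0.057, adjusted p = 0.0374). Leaving out each array in turn kept 4225 values, ended 76 calls and added 19.

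The number of transporter genes called moved by more than 1.5 times as follows. With the 25% of genes with the lowest means left out, which tests only HXT2, HXT3, HXT4, HXT5 and HXT7, or with low values raised to 9.75, which sets HXT1, HXT10 and HXT11 level, both settings gave 5 in place of 8 that differed among strains, 1 for sip1, 0 for sip2, 3 for gal83, 2 for the triple against sip2 gal83, 3, 1 and 3 for the averages of SIP1, SIP2 and GAL83, and 2 for the SIP1 interaction. Raising also gave 1 for sip1 gal83 and 1 for the SIP2 interaction. Median centring gave 6 for sip1, 4 for sip2 and 7 for sip2 gal83, with the flat HXT14 among them each time and HXT8 too for sip2. Array weights gave 6 for sip1, 5 for sip2, 7 for sip2 gal83 and 6 for the triple against sip1 gal83. The compared strains alone gave 3 for sip2, 2 for sip2 gal83, 0 for gal83 against the mean of sip1 and sip2, and 1 for sip2 gal83 against sip1 gal83. Without 1 array, the counts ran from 1 to 2 for sip2, 3 to 5 for gal83, 0 to 3 for sip1 gal83 and 1 to 3 for gal83 against that mean. Apart from what follows by construction, the cause was not tested.

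For the double against single deletion strains, the 3 transporters called for sip1 sip2 against sip2 became 1 with low values raised or with those strains alone, 2 with a replicate block, and 0 to 4 without 1 array. The 4 for sip1 sip2 against sip1 became 2 without or with raised low values and ran from 2 to 4 without 1 array. The 2 for sip1 gal83 against gal83 became 7 after median centring, with the flat HXT8 and HXT14 among them. They became 5 with array weights and ran from 2 to 4 without 1 array. The 1 for sip2 gal83 against gal83 became 5 with weights, 2 without the doubted arrays and 0 alone, and ran from 1 to 2. The 3 for sip1 gal83 against sip1 became 5 with weights and 1 with raised values, and the 3 for sip2 gal83 against sip2 became 1 alone. Over all genes, those strains alone turned 1637 calls into 223 for sip2 gal83 against gal83 and 2026 into 707 for it against sip2.

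A replicate block ended 3 calls, HXT7 in the gal83 strain (0.17, adjusted p = 0.0555), HXT4 in sip1 sip2 against sip2 (0.45, adjusted p = 0.0529) and HXT10 in sip1 sip2 against sip1 (0.94, adjusted p = 0.0522), and changed no other call of a transporter gene. Every same-number correlation exceeded 0.1 in 2 of 28 pairs of strains. Over all genes the number of calls also moved by more than 1.5 times. Array weights raised it from 14 to 160 for sip1 sip2, 594 to 1594 for sip1 gal83 and 2093 to 3392 for the triple strain against the reference. They raised it from 1748 to 2658, 717 to 2248 and 789 to 2026 for the triple against sip1 sip2, sip1 gal83 and sip2 gal83, and from 1363 to 2170 and 731 to 1409 for the averages of SIP1 and SIP2. They also raised it from 204 to 490 for gal83 against the mean of the others, 683 to 1372 for sip2 gal83 against sip1 gal83, and 1377 to 2496 and 1566 to 2598 for the SIP2 and GAL83 interactions. In the same comparisons, the compared strains alone turned 14 into 5, 2031 into 528 for sip2 gal83, 717 into 1109, 789 into 232, 204 into 120 and 683 into 4. Without the doubted arrays 14 became 41, 594 became 898, 204 became 330 and 683 became 183. Without 1 array they ran from 11 to 28 for sip1 sip2, 231 to 942 for sip1 gal83, 379 to 1270 and 492 to 1107 for the triple against sip1 gal83 and sip2 gal83, 95 to 327 for gal83 against the mean, and 189 to 1209 for sip2 gal83 against sip1 gal83. Leaving out low genes turned 14 into 5 and raising low values turned 204 into 133. Readings near the lower end of the scale limit HXT1, HXT8, HXT10, HXT11 and HXT14, and 307 genes had a mean under 3.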
